A study of Arabidopsis thaliana with 17 samples.

Results

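The double mutant psae1-3 stn7-1 of Arabidopsis thaliana was set against the wild type Wassilewskija, a comparison of 4 arrays of the 17 in the series. The arrays were chosen by their titles: psae1-3 stn7-1 A and B, and the Wassilewskija arrays A and B. Each array was an ATH1 GeneChip, a microarray with 22810 probe sets for Arabidopsis transcripts, and was hybridized with label made from 5 µg of total RNA. The RNA came from a pool of 10 plants, from rosette leaves at an age of 4 weeks in every genotype.

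psae1-3 stn7-1 carries the psae1-3 mutation in PSAE-1 together with stn7-1, a mutation in STN7 (2 arrays). The other groups used here were the single mutant psae1-3 (2 arrays), the double mutant psad1-1 stn7-1 (3 arrays), the wild type Col-0 (3 arrays) and the wild type Wassilewskija (2 arrays). The labels call the arrays of a genotype biological replicates and do not say in which wild type each mutation arose or whether the double mutant was backcrossed. Wassilewskija, psae1-3 and psae1-3 stn7-1 were deposited on 1 scale and Col-0, stn7-1, psad1-1 and psad1-1 stn7-1 on another. A difference between the wild types therefore cannot be told apart from a difference between these array sets. The array's 25S ribosomal RNA control read 15.1 to 22.1 on the 6 arrays of the first set and 522 to 2130 on the 11 of the second.

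PSAE-1 encodes PsaE, a small subunit on the stromal face of photosystem I, near the site where ferredoxin takes up electrons. A second gene, PSAE-2, encodes the same subunit. STN7 is a thylakoid protein kinase that phosphorylates light-harvesting complex II when the plastoquinone pool is reduced, which lets part of the antenna move to photosystem I in a state transition, and it is also known for a part in longer-term acclimation of leaves to light quality.

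Signals are the deposited array intensities, rescaled so that the 2% trimmed mean of an array is 100, and changes are log2 differences from a limma fit over all 17 arrays. Probe sets pass where the p adjusted by Benjamini-Hochberg is below 0.05. A signal of 8.15 was taken as background. Array medians were 32.3 and 31.1 in psae1-3 stn7-1 and 32.6 and 33.5 in Wassilewskija, and 73.0% and 71.5% of probe sets read above background in the double mutant, against 71.9% and 73.9% in Wassilewskija. The 2 double mutant arrays correlated at 0.979 across probe sets, and the double mutant correlated with Wassilewskija at 0.923 to 0.936, with psae1-3 at 0.926 to 0.946 and with Col-0 at 0.843 to 0.888. The corresponding values between psae1-3 and Wassilewskija were 0.954 to 0.962.

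The leaf label was checked against genes of photosynthetic tissue. RCA (AT2G39730), which encodes Rubisco activase, read 6493 and 6319 in psae1-3 stn7-1 and 6242 and 6576 in Wassilewskija. LHCB4.1 (AT5G01530), an antenna protein of photosystem II, read 6074 and 6188 in psae1-3 stn7-1 and 6639 and 6528 in Wassilewskija. RCA overlapped between the genotypes, and LHCB4.1 did not pass the test. None of the markers listed for phloem, inflorescence and root had a named probe set that was bright enough to be tested. In RNA from whole leaves, fewer cells of a type and less RNA per cell cannot be told apart, which holds for every result here.

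PSAE-1 (AT4G28750) read 5.25 and 10.4 in psae1-3 stn7-1, against 5105 and 4913 in Wassilewskija. Replicate A of the double mutant lay under the background, so the signal was at least 545-fold lower (−9.41 log2, SE 0.34, adjusted p = 2.13e-11). In psae1-3 the same probe set read 23.7 and 63.2, and the double mutant was lower than psae1-3 as well (at least 4.21-fold, −2.39 log2, SE 0.34, adjusted p = 0.00014). The groups did not overlap in either comparison. No probe set is named for STN7 or PSAE-2 in the annotation used, so stn7-1 was not checked by its own transcript.

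Between psae1-3 stn7-1 and Wassilewskija, 2214 of 13648 tested probe sets passed (16.2%), 1014 higher (7.43%) and 1200 lower (8.79%). Of these, 763 differed at least 2-fold (5.59%), 373 higher and 390 lower. With the spread taken from only the 6 arrays of the Wassilewskija set, 1770 passed in place of 2214. The median change of all tested probe sets was −0.05 log2. Of the 2214 passing probe sets 45.8% were higher, against 55.4% after scaling to the array median and 51.1% after quantile normalization. The count fell by more than 1.5 times when 1 of 3 arrays was left out: to 1274 without psae1-3 stn7-1 replicate A, 1464 without its replicate B and 1288 without Wassilewskija replicate B.

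The passing probe sets were then sorted by where Col-0 lay. A probe set counted as moved toward Col-0 when Col-0 differed from Wassilewskija past the test in the same direction and the double mutant covered 0.5 to 1.5 of that gap. Between the wild types 47% of all probe sets passed in either direction, and 15% did so with at least 2-fold. By this rule 763 probe sets counted as moved toward Col-0, 34.5% of those that passed between psae1-3 stn7-1 and Wassilewskija, with 397 higher and 366 lower. The other 1451 probe sets are called the rest, with 617 higher and 834 lower. Both the gap and the change of the double mutant are measured from the same Wassilewskija arrays, so chance in those arrays moves both in 1 direction. The number moved toward Col-0 was 478 when gap and share were measured from psae1-3 instead, and 370 when the gap had to be at least 2-fold. It was 454 and 488 without replicate A or B of the double mutant and 493 without Wassilewskija replicate B.

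Among changes of at least 2-fold toward Col-0, 211 of 300 such probe sets were higher in psae1-3 stn7-1 (70.3%), and in the rest 162 of 463 were (35.0%). The sorting gives the first class the direction of the wild-type gap, and 64.4% of the 2049 passing gaps of at least 2-fold were higher in Col-0, so nothing is read from this split. Of the passing probe sets outside the 763, 1166 had no wild-type gap in their direction, 105 covered less than 0.5 of it and 180 covered more than 1.5. Close to the lower limit, ZW9 (AT1G58270) with a share of 0.44 fell in the rest and AT1G65370 with 0.51 did not. Close to the upper limit, AT1G78450 with 1.43 was sorted toward Col-0, and AT1G29600 with 1.63 was in the rest.

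**Figure D1:**
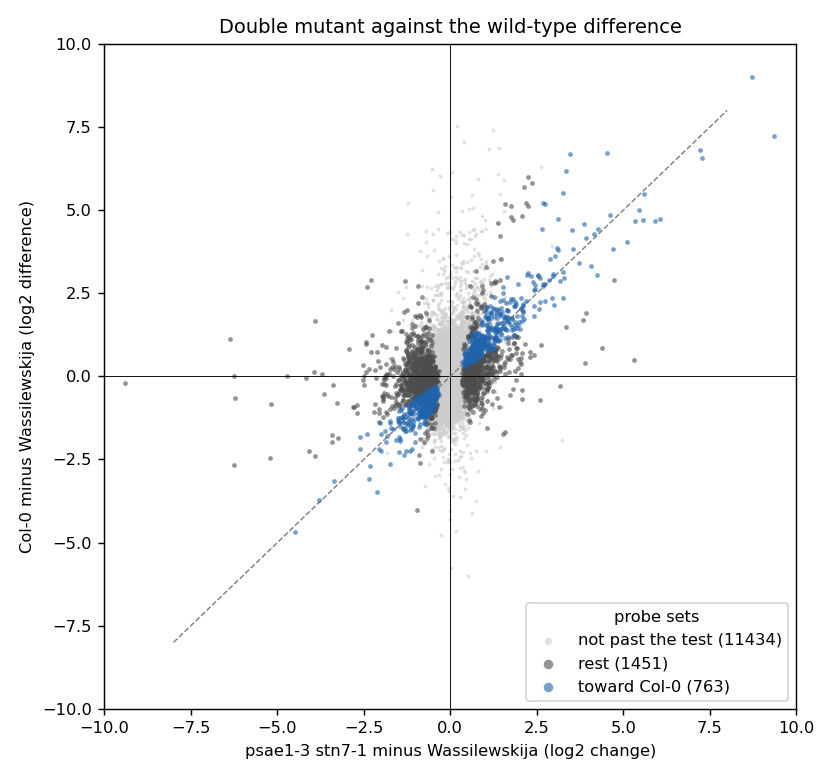
Log2 change of psae1-3 stn7-1 against Wassilewskija (x axis) and log2 difference of Col-0 against Wassilewskija (y axis) for each of the 13648 tested probe sets, with the dashed line where both are equal. Blue points are the 763 passing probe sets moved toward Col-0, which lie along the dashed line by the rule that chose them, dark grey points the 1451 of the rest and light grey points those that did not pass.

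Of the 5 genes that rose most toward Col-0, 3 read below background on both Wassilewskija arrays, THI2.2 read below it on 1 and ECS1 on neither. AT1G76960, a short protein of no settled role, read 1098 and 1082 in psae1-3 stn7-1, against 1.67 and 1.63 in Wassilewskija, at least 134-fold higher (9.37 log2, SE 0.52, adjusted p = 4.57e-09). It read 1.15 and 0.519 in psae1-3 and 227, 279 and 241 in Col-0, so the double mutant stood above both wild types. AT1G66100, which encodes a thionin, a small cysteine-rich antimicrobial protein, read 1696 and 1722 in psae1-3 stn7-1, against 3.82 and 4.28 in Wassilewskija, at least 210-fold higher (8.72 log2, SE 0.21, adjusted p = 1.54e-13). Its signals of 5.50 and 2.68 in psae1-3 were also under the background, and those in Col-0 were 2040, 2055 and 2166.

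ECS1 (AT1G31580), a cell wall protein linked to resistance to Xanthomonas, read 6545 and 6499 in psae1-3 stn7-1, against 36.6 and 52.7 in Wassilewskija (7.21 log2, SE 0.30, adjusted p = 1.56e-10). It read 14.8 and 41.3 in psae1-3 and 5311, 4953 and 4550 in Col-0. The double mutant arrays were the highest of these 4 genotypes, and psae1-3 overlapped with Wassilewskija. THI2.2 (AT5G36910), another thionin, read 554 and 556 in psae1-3 stn7-1, against 18.6 and 3.73 in Wassilewskija, at least 45.1-fold higher (6.06 log2, SE 0.45, adjusted p = 1.65e-07). Unlike the 3 genes before it, THI2.2 already stood at 97.7 and 110 in psae1-3, past the test against Wassilewskija (3.64 log2, adjusted p = 0.000297). AT1G51270 read 118 and 77.9 in psae1-3 stn7-1, 4.51 and 3.93 in psae1-3 and 34.0, 38.5 and 48.9 in Col-0, against 0.444 and 1.46 in Wassilewskija (at least 11.8-fold, 5.93 log2, SE 0.28, adjusted p = 4.65e-10). These values are from 1 of its 2 tested probe sets, and the other had no passing wild-type gap of at least 8-fold. Of these 5 genes, 4 lie on chromosome 1.

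Among genes that fell toward the Col-0 level, all 5 with the largest change lie on chromosome 1. ACLA-2 (AT1G60810), a subunit of ATP-citrate lyase, which makes cytosolic acetyl-CoA, read 65.5 and 69.4 in psae1-3 stn7-1, against 290 and 252 in Wassilewskija (−2.00 log2, SE 0.14, adjusted p = 4.58e-08). The signals in Col-0 were 80.4, 87.9 and 76.9, and those in psae1-3 were 411 and 426, so the double mutant was furthest from the single mutant. AT1G02300, a cathepsin B-like cysteine protease, read 115 and 101 in psae1-3 stn7-1 and 68.8, 59.0 and 65.7 in Col-0, against 472 and 642 in Wassilewskija (−2.35 log2, SE 0.23, adjusted p = 3.72e-06). AT1G50290 changed by −2.11 log2 (SE 0.20, adjusted p = 2.66e-06), AT1G78450, a SOUL haem-binding protein, by −2.60 log2 (SE 0.27, adjusted p = 5.33e-06) and AT1G23850 by −2.60 log2 (SE 0.36, adjusted p = 0.000116). In all 5 genes the arrays of psae1-3 stn7-1 lay below those of Wassilewskija and of psae1-3.

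**Figure D2:**
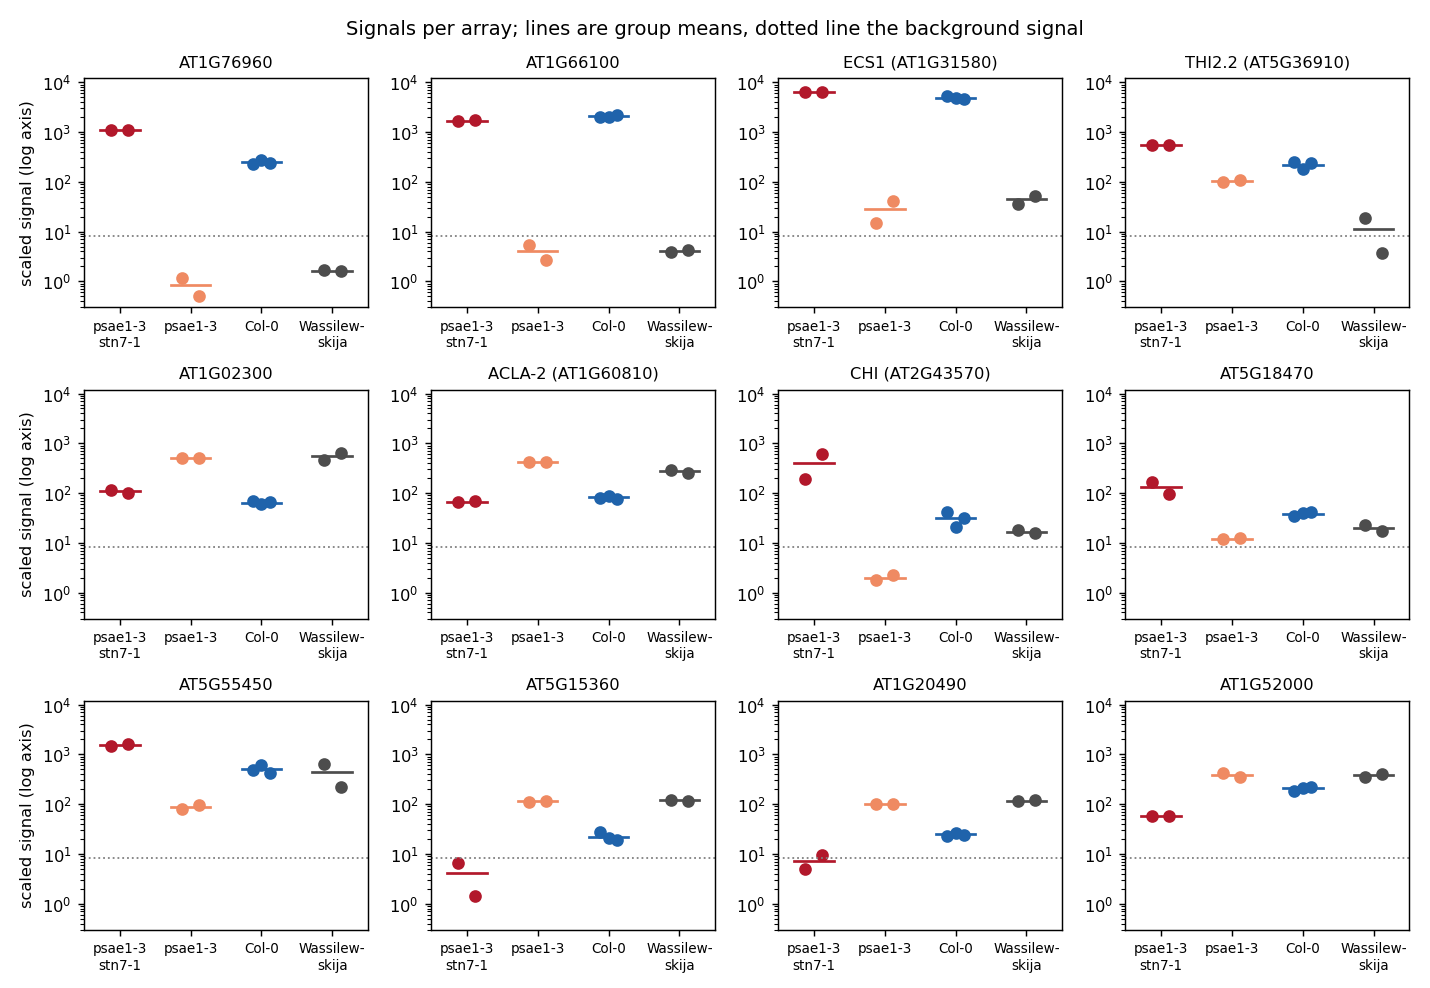
Scaled signal (log axis) on each array of psae1-3 stn7-1, psae1-3, Col-0 and Wassilewskija for 12 genes, with lines at the group means and a dotted line at the background signal of 8.15. In AT1G76960, AT1G66100 and ECS1 the double mutant stands with or above Col-0 while psae1-3 stays with Wassilewskija, and AT5G15360, AT1G20490 and AT1G52000 are lowest in the double mutant.

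Position on the chromosomes was not used in the sorting. Among tested probe sets with 1 named gene, 166 of 1903 on chromosome 1 passed between psae1-3 stn7-1 and Wassilewskija with a change of at least 2-fold (8.72%), against 203 of 5363 on chromosomes 2 to 5 (3.79%). The shares were 2.65% on chromosome 2, 2.76% on chromosome 3, 3.38% on chromosome 4 and 5.58% on chromosome 5. Against psae1-3, in which the same count does not involve either wild type, chromosomes 1 and 5 again had the highest shares: 8.04% on chromosome 1, 4.90% on chromosome 5 and 2.02% to 2.53% on chromosomes 2 to 4. Between psae1-3 and Wassilewskija the share was 2.68% on chromosome 1 and 1.55% to 2.53% on the others. The rest, sorted apart from the probe sets toward Col-0, also had its highest share on chromosome 1 (4.2%) and its next highest on chromosome 5 (3.42%), against 1.80% to 2.35% on chromosomes 2 to 4. Neighbouring genes are not independent, so these are counts with no test.

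Seen from the wild-type differences, 292 named probe sets on chromosome 1 differed at least 2-fold between Col-0 and Wassilewskija, and psae1-3 stn7-1 covered 0.5 or more of the gap at 122 of them (41.8%). On chromosomes 2 to 5 this held for 120 of 747 (16.1%), from 10.9% on chromosome 2 to 22.8% on chromosome 5. psae1-3, whose changes are measured from the same Wassilewskija arrays, covered 0.5 or more at 5.48% of the gaps on chromosome 1 and 6.56% on chromosomes 2 to 5. Where the gap was at least 8-fold, the double mutant covered it at 18 of 33 probe sets on chromosome 1, 7 of 15 on chromosome 5, 2 of 11 on chromosome 2, 3 of 18 on chromosome 3 and 0 of 10 on chromosome 4.

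The covered gaps were spread over the whole of chromosome 1. When its named genes were divided in gene order into 10 equal parts, the share of gaps covered ran from 27.3% at the start (AT1G01080 to AT1G07250) to 59.0% in the fourth part (AT1G20370 to AT1G27060) and was 37.0% at the end (AT1G75140 to AT1G80950). The part that spans the STN7 locus by its gene number (AT1G62330 to AT1G68980) had 19 of 45 gaps covered (42.2%). On chromosome 5 the parts ranged from 10.0% to 34.8%, and on chromosomes 2 to 4 from 0% to 35.7%, with a median of 12.5%.

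**Figure D3:**
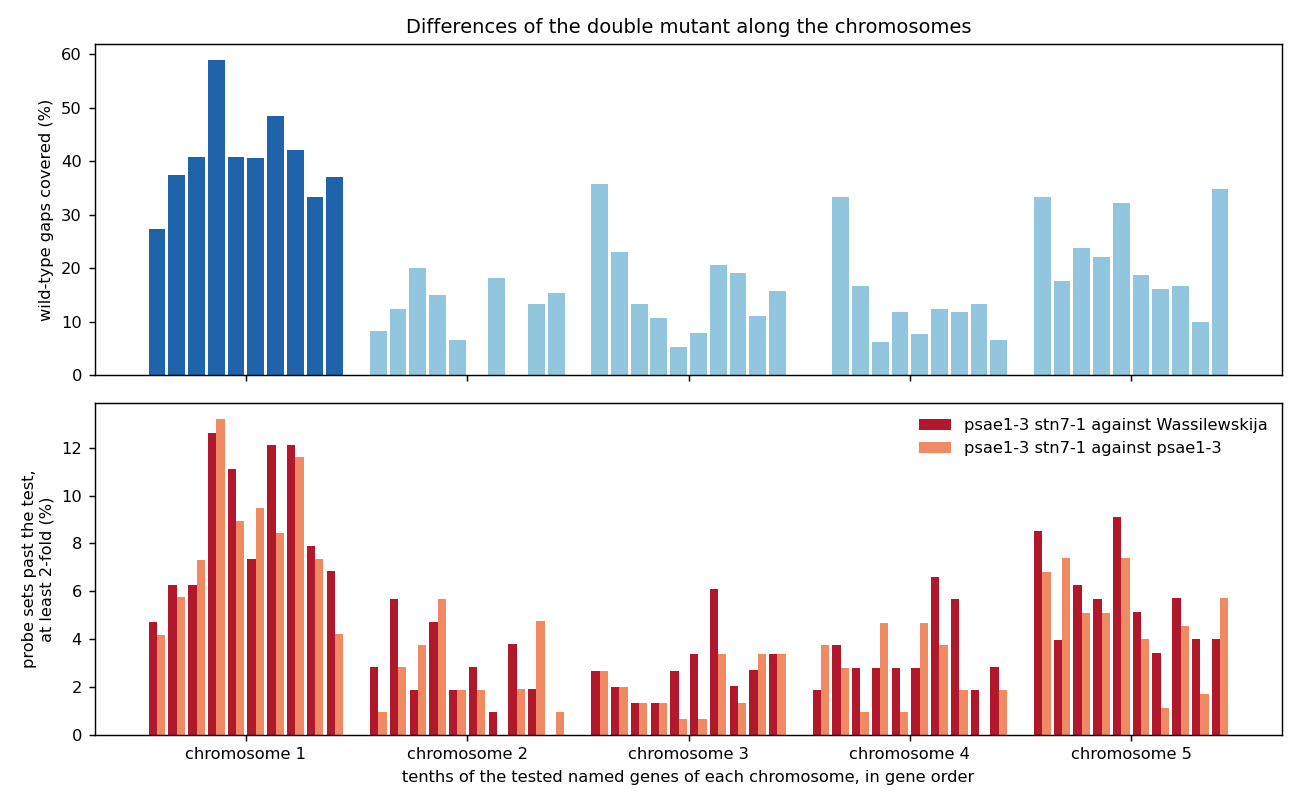
Share of wild-type gaps of at least 2-fold at which psae1-3 stn7-1 covered 0.5 or more of the gap (top), and share of tested named probe sets that passed with at least 2-fold change (bottom), in 10 equal parts of each chromosome in gene order. All 10 parts of chromosome 1 lie between 27.3% and 59.0% in the top panel, and the bottom panel shows higher shares on chromosome 1 against Wassilewskija and against psae1-3.

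Several of the covered 8-fold gaps are immune receptor genes of the nucleotide-binding leucine-rich repeat type, named here after their values were seen. CSA1 (AT5G17880) read 140 and 91.6 in psae1-3 stn7-1, 0.954 and 8.63 in psae1-3 and 70.4, 71.5 and 72.0 in Col-0, against 5.05 and 1.41 in Wassilewskija. AT5G36930 read 102 and 70.8 in psae1-3 stn7-1, against 1.77 and 1.79 in Wassilewskija. AT1G63880 read 241 and 209 in psae1-3 stn7-1, against 10.4 and 17.2 in Wassilewskija. In each of these the double mutant arrays lay above those of Col-0 as well, with shares of the gap of 1.14, 1.19 and 1.23. This did not hold for every covered receptor gene of this kind. AT5G63020 read 34.8 and 25 in psae1-3 stn7-1 and 38.9, 36.9 and 31.8 in Col-0, a share of 0.93. Receptor genes of the same kind were also among the gaps that were not covered. AT3G44630 read 12.2 and 10.6 in psae1-3 stn7-1 and 203, 253 and 244 in Col-0, against 10.4 and 12.6 in Wassilewskija, and AT4G19500 covered −0.17 of its gap.

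AT1G35710, a leucine-rich repeat receptor kinase, read 1070 and 655 in psae1-3 stn7-1 and 381, 461 and 373 in Col-0, against 20.2 and 29.5 in Wassilewskija. AT5G03350, a legume lectin known to respond to salicylic acid, read 1625 and 2048 in psae1-3 stn7-1, 77.0 and 107 in psae1-3 and 1428, 1541 and 1402 in Col-0, against 206 and 91.6 in Wassilewskija. In both genes the arrays of the double mutant and of Col-0 stood above all those of Wassilewskija.

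Of the 33 gaps of at least 8-fold on chromosome 1, 15 were not covered. Some of them, again named after their values were seen, encode regulators known for fast stress responses. STZ (AT1G27730), a zinc-finger repressor, read 177 and 93.2 in psae1-3 stn7-1 and 1008, 2596 and 1547 in Col-0, against 69.2 and 27.1 in Wassilewskija, a share of 0.30. CML38 (AT1G76650), a calmodulin-like protein, had a share of 0.26, CML23 (AT1G66400) one of 0.15 and ORA47 (AT1G74930), an ERF transcription factor, one of 0.07. The arrays of Col-0 spread widely in these genes, from 309 to 1115 for CML38. On other chromosomes QQS (AT3G30720), an orphan gene known to affect starch content, read 2.72 and 0.938 in psae1-3 stn7-1, under the background, and 236, 167 and 226 in Col-0, against 0.762 and 1.15 in Wassilewskija.

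In the rest, a chitinase, a lectin and a lipid transfer protein were among the 10 highest genes. CHI (AT2G43570), the chitinase, read 195 and 616 in psae1-3 stn7-1, against 17.8 and 15.6 in Wassilewskija (4.38 log2, SE 0.49, adjusted p = 1.46e-05). In psae1-3 it was under the background on both arrays. AT5G18470, the mannose-binding lectin, read 165 and 94.2 in psae1-3 stn7-1 and 11.7 and 12.3 in psae1-3, against 23.3 and 17.3 in Wassilewskija (2.63 log2, SE 0.36, adjusted p = 0.000105). AT5G55450, the lipid transfer protein, read 1480 and 1598 in psae1-3 stn7-1 and 81.2 and 96.1 in psae1-3, against 650 and 222 in Wassilewskija (2.02 log2, SE 0.35, adjusted p = 0.000953). Among psae1-3 stn7-1, psae1-3 and Wassilewskija, all 3 genes read lowest in psae1-3 and highest in psae1-3 stn7-1. For AT5G18470 the difference between psae1-3 and Wassilewskija did not pass (adjusted p = 0.188). Col-0 read 34, 39.8 and 41.7 in AT5G18470, and the double mutant covered 2.82 of the gap.

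The largest change of the rest on the high side was in AT1G29600, a zinc-finger protein, with 97.2 and 76.3 in psae1-3 stn7-1, against 3.68 and 2.91 in Wassilewskija (at least 10.6-fold, 4.72 log2, SE 0.45, adjusted p = 2.59e-06). Col-0 read 19.4, 25.8 and 29.3 there, so this gene passed the Col-0 level and was sorted into the rest. AT3G62950, a glutaredoxin, read 20.2 and 34.3 in psae1-3 stn7-1, against 0.963 and 2.12 in Wassilewskija (at least 3.23-fold, 3.85 log2, SE 0.78, adjusted p = 0.00305). It read 58.0 and 28.6 in psae1-3, which overlapped with the double mutant. It was the only one of the 10 highest genes of the rest that did not pass against psae1-3 (−0.63 log2, adjusted p = 0.677).

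The other genes of that group of 10 changed by 2.06 to 2.26 log2. Of them ZW9, AT1G54050 and AT5G02830 moved in the direction of a passing wild-type gap, with shares of 0.44, 0.43 and 2.93. Col-0 read 174, 210 and 215 in AT1G54050. ZW9, with a MATH domain, read 46.6 and 53.8 in psae1-3 stn7-1, against 10.5 and 10.4 in Wassilewskija (2.26 log2, SE 0.17, adjusted p = 1.32e-07). AT5G02830, a pentatricopeptide repeat protein, read 385 and 331 in psae1-3 stn7-1 and 140 and 178 in psae1-3, against 93.4 and 78.6 in Wassilewskija (2.06 log2, SE 0.16, adjusted p = 2.92e-07). AT3G44970, a cytochrome P450 (2.07 log2, SE 0.42, adjusted p = 0.00322), AT1G54050, a small heat shock protein (at least 3.11-fold, since Wassilewskija replicate A was under the background; 2.06 log2, SE 0.37, adjusted p = 0.00125), and AT5G43910, a pfkB-type carbohydrate kinase (2.07 log2, SE 0.45, adjusted p = 0.0046), also rose. AT5G43910 did not pass without Wassilewskija replicate A (adjusted p = 0.0731).

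Genes of the anthocyanin pathway were among the lowest of the rest. Of 16 listed flavonoid and anthocyanin genes 4 were tested, and 3 fell against Wassilewskija, where 8.79% of all probe sets did. The median of the 4 was −3.10 log2, against −0.05 log2 over all probe sets. UGT75C1 (AT4G14090), which glucosylates anthocyanins, read 11.4 and 3.45 in psae1-3 stn7-1, against 88.0 and 314 in Wassilewskija, at least 17.2-fold lower (−4.73 log2, SE 0.79, adjusted p = 0.000644). DFR (AT5G42800), dihydroflavonol reductase, the first enzyme committed to anthocyanins, read 18.2 and 8.39 in psae1-3 stn7-1, against 87.4 and 417 in Wassilewskija (−3.95 log2, SE 0.82, adjusted p = 0.00357). UF3GT (AT5G54060), which adds a sugar to anthocyanins, read 13.4 and 9.78 in psae1-3 stn7-1, against 30.4 and 98.1 in Wassilewskija (−2.25 log2, SE 0.51, adjusted p = 0.00611).

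Wassilewskija replicate B was the brighter array in all 3 genes. Without it DFR (adjusted p = 0.0664) and UF3GT (adjusted p = 0.111) did not pass and 1 of the 4 fell. UF3GT also missed the threshold without replicate B of the double mutant (adjusted p = 0.0537). UGT78D2 (AT5G17050), a flavonoid glucosyltransferase that acts on flavonols too, read 204 and 191 in psae1-3 stn7-1, against 185 and 270 in Wassilewskija (−0.18 log2, adjusted p = 0.555). None of the 4 passed between psae1-3 stn7-1 and psae1-3 (DFR 0.61 log2, adjusted p = 0.704; UGT75C1 0.30 log2, adjusted p = 0.859), and in psae1-3 UGT75C1 read 16.6 and 0.897.

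Outside this pathway, AT5G15360, a protein of no settled role, read 6.69 and 1.45 in psae1-3 stn7-1, both under the background, against 124 and 116 in Wassilewskija (at least 14.7-fold lower, −5.20 log2, SE 0.47, adjusted p = 1.2e-06). psae1-3 read 113 and 114 and Col-0 read 27.4, 20.6 and 18.7, so the double mutant was below every other genotype given here. AT1G20490, an AMP-dependent synthetase, had the same order, with 4.92 and 9.69 in psae1-3 stn7-1, 103 and 101 in psae1-3 and 23.2, 26.7 and 24.0 in Col-0, against 114 and 120 in Wassilewskija (at least 13.2-fold lower, −4.09 log2, SE 0.29, adjusted p = 1.01e-07). AT1G62290, an aspartic protease, fell by 3.43 on the log2 scale (SE 0.31, adjusted p = 1.27e-06), also below Col-0.

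AT1G27030 read 27.5 and 28.7 in psae1-3 stn7-1 and 123 and 104 in psae1-3, against 302 and 418 in Wassilewskija (−3.66 log2, SE 0.30, adjusted p = 5.18e-07). AT1G80130, a tetratricopeptide-like protein, read 161 and 109 in psae1-3 stn7-1 and 311 and 189 in psae1-3, against 1020 and 1537 in Wassilewskija (−3.24 log2, SE 0.27, adjusted p = 4.93e-07). In both genes the double mutant lay below psae1-3 and psae1-3 below Wassilewskija, with every step past the test. For AT1G80130 Col-0 read 335, 418 and 293, and the double mutant covered 1.74 of the gap. AT5G22460, of the alpha/beta-hydrolase family (at least 3.44-fold lower, −3.91 log2, SE 0.46, adjusted p = 2.25e-05), and AT2G14900, of the gibberellin-regulated GASA family (at least 3.39-fold lower, −2.93 log2, SE 0.49, adjusted p = 0.000691), were under the background on both double mutant arrays. Neither passed against psae1-3 (adjusted p = 0.448 and 0.135).

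**Figure D4:**
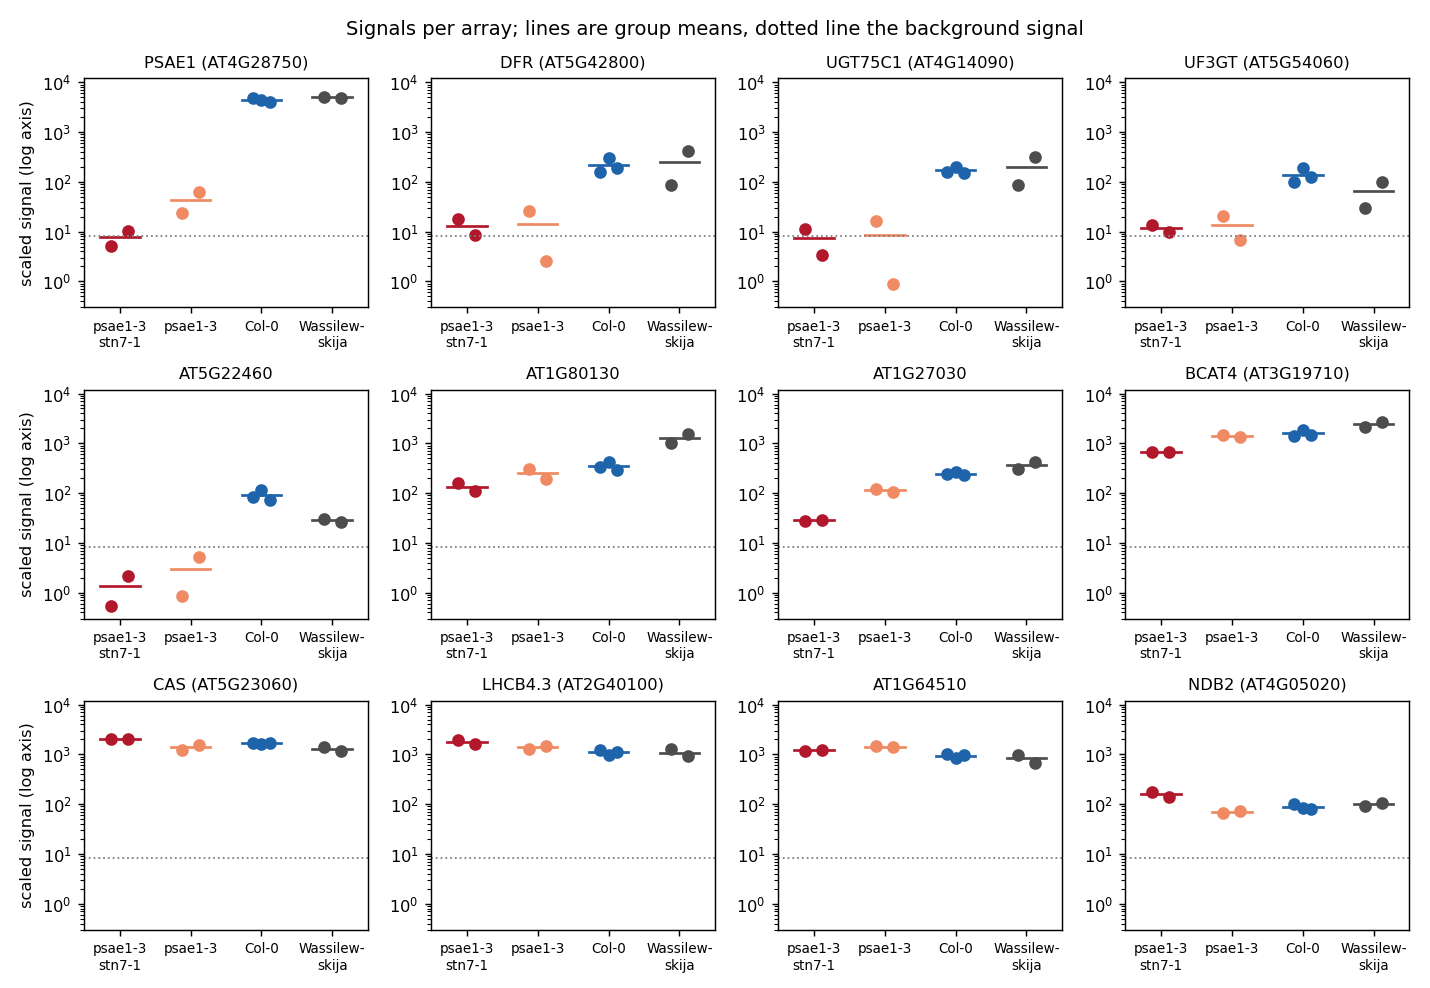
Scaled signal (log axis) on each array of psae1-3 stn7-1, psae1-3, Col-0 and Wassilewskija for PSAE-1, genes of the anthocyanin pathway, further low genes of the rest and list members that passed, with lines at the group means and a dotted line at the background signal of 8.15. PSAE-1 and the anthocyanin genes are low in both lines that carry psae1-3. In the bottom row CAS, LHCB4.3, AT1G64510 and NDB2 differ by less than 2-fold between psae1-3 stn7-1 and Wassilewskija.

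Few nuclear genes of the photosynthetic apparatus could be tested. Of 2 tested photosystem I genes only PSAE-1 passed. PSAN (AT5G64040), another photosystem I subunit, read 4097 and 4314 in psae1-3 stn7-1, against 4194 and 4119 in Wassilewskija (0.02 log2, adjusted p = 0.931). The photosystem II subunits PSBW and PSBY and the Calvin cycle genes RCA, PRK and SBPASE did not pass (−0.04 to 0.09 log2). Of 14 antenna genes of photosystem II, 3 were tested, all of the LHCB4 family, which encodes the minor antenna CP29. LHCB4.3 (AT2G40100) read 1911 and 1588 in psae1-3 stn7-1, against 1261 and 921 in Wassilewskija (0.69 log2, SE 0.17, adjusted p = 0.0118). LHCB4.2 (AT3G08940) read 3223 and 3121 in psae1-3 stn7-1, against 3798 and 4217 in Wassilewskija (−0.34 log2, SE 0.10, adjusted p = 0.0238). LHCB4.1 did not pass (−0.10 log2, adjusted p = 0.62). LHCB4.3 missed the threshold without double mutant replicate A or Wassilewskija replicate B (adjusted p = 0.116 and 0.164), and LHCB4.2 under scaling to the array median (adjusted p = 0.0975) and without either double mutant array or Wassilewskija replicate B (adjusted p = 0.0737 to 0.185). LHCB4.2 also missed it with no filter, with no variance trend and in the fit over 6 arrays (adjusted p = 0.0652 to 0.0702).

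CAS (AT5G23060), a thylakoid calcium-sensing protein that is itself phosphorylated, read 2067 and 2053 in psae1-3 stn7-1, against 1385 and 1170 in Wassilewskija (0.69 log2, SE 0.12, adjusted p = 0.000728). It was also higher than in psae1-3, which read 1228 and 1533 (0.59 log2, SE 0.12, adjusted p = 0.00324), and the groups did not overlap in either comparison. TSP9 (AT3G47070), a thylakoid phosphoprotein and the other tested member of its list, did not pass against either (0.29 log2, adjusted p = 0.0954 against Wassilewskija). NDHN (AT5G58260), a subunit of the chloroplast NADH dehydrogenase-like complex, rose by 0.48 log2 (SE 0.11, adjusted p = 0.00878), but not past the test without double mutant replicate A (adjusted p = 0.0971) or Wassilewskija replicate B (0.0567). The other 3 tested genes of electron carriers, that complex and the ATP synthase did not pass (−0.18 to 0.30 log2).

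In tetrapyrrole synthesis, the pathway to chlorophyll and haem, 2 of 7 tested genes rose and 0 fell, where 7.43% of all probe sets were higher and 8.79% lower. The list median was 0.19 log2, against −0.05 log2 over all probe sets. CHLI2 (AT5G45930), a magnesium chelatase subunit, read 200 and 222 in psae1-3 stn7-1 and 305 and 237 in psae1-3, against 143 and 120 in Wassilewskija (0.69 log2, SE 0.17, adjusted p = 0.0127). GSA1 (AT5G63570), glutamate-1-semialdehyde aminomutase, rose by 0.57 log2 (SE 0.18, adjusted p = 0.0384). CHLI2 missed the threshold without double mutant replicate B (adjusted p = 0.091) or Wassilewskija replicate B (0.121), and GSA1 without any 1 of the 4 arrays (adjusted p = 0.0738 to 0.202), with no filter (0.0681) or with no variance trend (0.0557). PORB (AT4G27440), a protochlorophyllide oxidoreductase, read 1031 and 1290 in psae1-3 stn7-1 and 2288 and 1951 in psae1-3, against 1604 and 1276 in Wassilewskija. It was lower in the double mutant than in psae1-3 (−0.87 log2, SE 0.19, adjusted p = 0.0063) and did not pass against Wassilewskija (−0.31 log2, adjusted p = 0.306).

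Of 6 tested antioxidant genes 1 rose, where 7.43% of all probe sets were higher, and the list median was 0.12 log2. SAPX (AT4G08390), an organellar ascorbate peroxidase, read 644 and 624 in psae1-3 stn7-1, against 420 and 358 in Wassilewskija (0.71 log2, SE 0.21, adjusted p = 0.0274), and missed the threshold without any 1 of the 4 arrays (adjusted p = 0.0508 to 0.176) or with no filter (0.0615). TAPX (AT1G77490), the thylakoid ascorbate peroxidase, read 665 and 653 in psae1-3 stn7-1 and 904 and 997 in psae1-3, against 652 and 530 in Wassilewskija. It did not pass between the double mutant and Wassilewskija (0.16 log2, adjusted p = 0.41) and was lower in the double mutant than in psae1-3 (−0.53 log2, SE 0.12, adjusted p = 0.00918).

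Of 10 tested genes for nuclear-encoded proteins of the plastid ribosome, 1 was higher in psae1-3 stn7-1 than in Wassilewskija, where 7.43% of all probe sets were, and the median was 0.16 log2, against −0.05 log2 over all probe sets. Between psae1-3 and Wassilewskija all 10 were higher, where 5.41% of all probe sets were, with a median of 0.75 log2. Between psae1-3 stn7-1 and psae1-3, 6 of the 10 were lower, where 4.81% of all probe sets were, with a median of −0.49 log2. These comparisons share their arrays, so the 3 counts are not independent of each other.

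AT4G17560 of this list read 294 and 441 in psae1-3 stn7-1 and 753 and 631 in psae1-3, against 376 and 330 in Wassilewskija. AT5G24490 read 570 and 873 in psae1-3 stn7-1 and 1249 and 1205 in psae1-3, against 767 and 637 in Wassilewskija. In both the psae1-3 arrays stood above those of psae1-3 stn7-1 and Wassilewskija, and psae1-3 stn7-1 overlapped with Wassilewskija. In the other array set, psad1-1 stn7-1 read 906, 850 and 894 in AT4G17560, against 424, 339 and 405 in Col-0. For AT5G24490 the signals were 1389, 1278 and 1213 in psad1-1 stn7-1, against 774, 550 and 683 in Col-0. AT1G64510, the gene that passed, read 1161 and 1241 in psae1-3 stn7-1 and 1484 and 1385 in psae1-3, against 975 and 687 in Wassilewskija (0.55 log2, SE 0.15, adjusted p = 0.0215). It missed the threshold without Wassilewskija replicate B (adjusted p = 0.275) or either double mutant array (adjusted p = 0.0645 and 0.116), and in the fit over 6 arrays (0.0508). The counts depended on single arrays. The 6 lower genes became 0 without double mutant replicate A, 1 without replicate A of psae1-3 and 3 without its replicate B, and the 10 higher genes of psae1-3 became 1 without Wassilewskija replicate B. Under scaling to the array median 9 were lower than in psae1-3 and under quantile normalization 4, and the medians kept their signs.

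Of 111 tested cytosolic ribosomal protein genes, 5 were higher in psae1-3 stn7-1 than in Wassilewskija and 0 lower, where 7.43% of all probe sets were higher and 8.79% lower. Their median was 0.21 log2, against −0.05 log2 over all probe sets. Between psae1-3 and Wassilewskija 10 were higher, where 5.41% of all probe sets were, with a median of 0.46 log2, against −0.11 log2 over all probe sets. The largest change was in AT1G18540, which read 393 and 438 in psae1-3 stn7-1, against 222 and 170 in Wassilewskija (1.09 log2, SE 0.26, adjusted p = 0.00767), and Col-0 read 535, 415 and 505. It missed the threshold without replicate B of the double mutant or of Wassilewskija (adjusted p = 0.0581 and 0.0858). The list median was 0.40 log2 without double mutant replicate A and 0.04 log2 without its replicate B, and the count of 5 became 1 without that replicate B and 2 without Wassilewskija replicate B. The count in psae1-3 ran from 0 without its replicate A to 47 without its replicate B, and was 39 under scaling to the array median. None of the 33 plastid-encoded photosynthesis genes (median 0.09 log2), the 9 plastid-encoded NDH genes (0.31 log2) and the other 25 plastid genes (0.00 log2) passed. The SE also takes in scatter within the other array set. In the photosynthesis genes it ran from 0.10 (atpE) to 1.27 (atpH). atpH read 3824 and 3429 in psae1-3 stn7-1, against 2981 and 2997 in Wassilewskija, but 886, 52 and 305 in Col-0. rbcL changed most, with 729 and 682 in psae1-3 stn7-1, against 376 and 418 in Wassilewskija (0.83 log2, SE 0.47, adjusted p = 0.254). Where the SE is this wide, a missed test does not show an unchanged level. Labelling of this kind primes from polyadenylated ends, which most plastid transcripts lack.

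**Figure D5:**
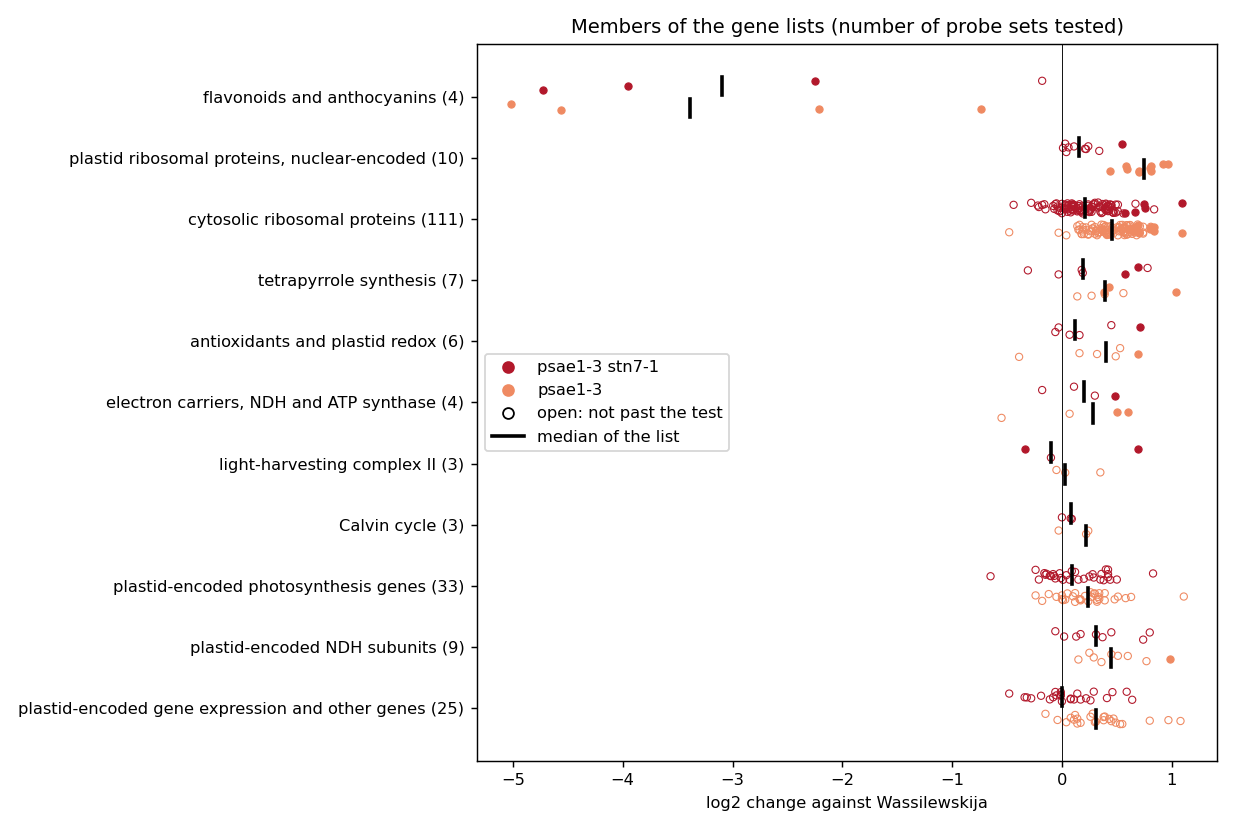
Log2 change against Wassilewskija of the tested members of 11 gene lists in psae1-3 stn7-1 (red, upper row) and psae1-3 (orange, lower row), with filled points past the test and black bars at the list medians. The plastid ribosomal proteins have a median of 0.16 in psae1-3 stn7-1 and 0.75 in psae1-3, and 3 anthocyanin genes lie far below 0 in both.

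Other metabolic genes moved singly. BCAT4 (AT3G19710), the first enzyme of methionine chain elongation for glucosinolates, read 679 and 673 in psae1-3 stn7-1 and 1458 and 1315 in psae1-3, against 2083 and 2710 in Wassilewskija (−1.81 log2, SE 0.20, adjusted p = 1.05e-05). It was lower than in psae1-3 too (−1.04 log2, adjusted p = 0.00222), and was the only glucosinolate gene of 20 listed that could be tested. NDB2 (AT4G05020), an alternative NADH dehydrogenase of mitochondria, read 172 and 142 in psae1-3 stn7-1 and 65.2 and 71.4 in psae1-3, against 91.4 and 106 in Wassilewskija (0.66 log2, SE 0.18, adjusted p = 0.0163). Its difference from psae1-3 was larger (1.19 log2, SE 0.18, adjusted p = 0.000221). NDB2 missed the threshold against Wassilewskija without double mutant replicate A or Wassilewskija replicate A (adjusted p = 0.143 and 0.116).

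COR47 (AT1G20440), a cold-induced dehydrin, read 572 and 387 in psae1-3 stn7-1, against 817 and 1294 in Wassilewskija (−1.13 log2, SE 0.24, adjusted p = 0.0038). APL3 (AT4G39210), a sugar-induced subunit of the starch enzyme ADP-glucose pyrophosphorylase, read 82.4 and 58.3 in psae1-3 stn7-1, against 122 and 164 in Wassilewskija (−1.03 log2, SE 0.26, adjusted p = 0.0121). Both missed the threshold without replicate B of the double mutant or of Wassilewskija (adjusted p = 0.0619 and 0.07 for COR47, 0.13 and 0.126 for APL3). SWEET2 (AT3G14770), a vacuolar sugar transporter, rose by 0.46 log2 (SE 0.14, adjusted p = 0.0312), with adjusted p from 0.052 to 0.242 without double mutant replicate A, double mutant replicate B or Wassilewskija replicate B, and 0.0934 in the fit over the 6 arrays of the Wassilewskija set. Of 2 tested markers of epidermis and guard cells, GC1 (AT1G22690) rose toward the Col-0 level (0.80 log2, SE 0.25, adjusted p = 0.0406), with adjusted p from 0.0555 to 0.339 without double mutant replicate A or either Wassilewskija array, and 0.0939 with no filter and 0.0586 with no variance trend, and FAMA did not pass (0.20 log2, adjusted p = 0.542).

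psae1-3 stn7-1 and psae1-3 share the psae1-3 mutation and the array set, and between them 1677 probe sets passed (12.3%), 1021 higher (7.48%) and 656 lower (4.81%). All tested probe sets had a median of 0.01 log2. Under scaling to the array median it was −0.10 log2, and 732 probe sets were then higher and 1028 lower, so that 41.6% of the calls were higher in place of 60.9%. Under the trimmed mean scaling, changes of at least 2-fold were mostly higher in the double mutant, 502 against 163 lower (4.87% of all probe sets together). No split at 2-fold is given under another scaling. The psae1-3 arrays were dimmer than those of the double mutant, with medians of 29.3 and 29.3. In them 69.4% and 70.3% of probe sets read above background. The count of passing probe sets was 769 without double mutant replicate A and 969 without psae1-3 replicate A.

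The highest genes in this comparison were again AT1G76960 (9.44 log2, SE 0.52, adjusted p = 4.08e-09), AT1G66100 (8.80 log2, SE 0.21, adjusted p = 1.35e-13) and ECS1 (8.04 log2, SE 0.30, adjusted p = 3.28e-11). The lowest were AT5G15360 (−5.13 log2, SE 0.47, adjusted p = 1.48e-06), AT1G20490 (−3.89 log2, SE 0.29, adjusted p = 1.82e-07) and AT1G52000, a jacalin-related lectin. AT1G52000 read 57.6 and 57.2 in psae1-3 stn7-1, against 423 and 355 in psae1-3 (−2.76 log2, SE 0.18, adjusted p = 2.97e-08), and Wassilewskija read 354 and 400. AT1G76960 and AT1G66100 were under the background in psae1-3, which makes them at least 134-fold and 210-fold higher in the double mutant. AT5G15360 and AT1G20490 were under it on 2 and 1 double mutant arrays, which makes them at least 14-fold and 11.5-fold lower. CHI, under the background on both psae1-3 arrays, was at least 42.5-fold higher in the double mutant than in psae1-3 (adjusted p = 3.76e-08). Of the 20 genes of the rest described above, which include PSAE-1, 15 passed against psae1-3, where 12.3% of all probe sets did. The 20 were chosen by their change from Wassilewskija in the same double mutant arrays, so nothing is read from that count. SWEET11 (AT3G48740), a sucrose exporter of the phloem, read 1214 and 1167 in psae1-3 stn7-1, against 844 and 600 in psae1-3 (0.74 log2, SE 0.18, adjusted p = 0.0114).

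The change of psae1-3 stn7-1 from Wassilewskija was set against that of psad1-1 stn7-1 from Col-0, each within its own array set. The difference passed at 3316 probe sets (24.3%), 1705 with a higher (12.5%) and 1611 with a lower change (11.8%) in psae1-3 stn7-1. AT1G76960 had the largest difference (14.79 log2, SE 0.68, adjusted p = 7.03e-10). It was 9.37 log2 higher in psae1-3 stn7-1 than in Wassilewskija, whereas it read 2.66, 7.88 and 9.23 in psad1-1 stn7-1, against 227, 279 and 241 in Col-0. Both Wassilewskija arrays and the psad1-1 stn7-1 signals of 2.66 and 7.88 were under the background. The size of this difference thus rests on signals that give bounds only. AT5G55450 also went opposite ways, with 43.6, 45.6 and 41.5 in psad1-1 stn7-1, against 497, 625 and 428 in Col-0 (difference 5.57 log2, SE 0.45, adjusted p = 5e-07).

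For AT1G66100 and ECS1 the difference (8.37 and 7.43 log2) stood beside like levels in both double mutants. ECS1 read 6545 and 6499 in psae1-3 stn7-1 and 4453, 3967 and 4310 in psad1-1 stn7-1, and it was Wassilewskija that was low. SWEET2 differed in the other direction (−2.58 log2, SE 0.18, adjusted p = 7.58e-08), with 106 and 121 in psae1-3 stn7-1 and 899, 818 and 771 in psad1-1 stn7-1. AT2G30540, a glutaredoxin, read 12.7 and 4.48 in psae1-3 stn7-1, against 19.4 and 29.0 in Wassilewskija, and 240, 197 and 184 in psad1-1 stn7-1, against 19.2, 23.7 and 29.6 in Col-0 (difference −4.76 log2, SE 0.48, adjusted p = 3.96e-06). The anthocyanin genes UGT75C1, DFR and UF3GT did not pass this difference (adjusted p = 0.11, 0.127 and 0.759).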

How the data were processed

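Rosette leaf RNA of 7 genotypes was measured on 17 ATH1 arrays. The deposited values are intensities (linear signals) that the authors made with GCOS and MAS5 per the submitters' processing notes, with versions not given in the sources used here. Their 2% trimmed mean was 500 on 6 arrays (psae1-3 stn7-1, psae1-3, Wassilewskija) and 100 on the others. Each array was rescaled to 100. Lower signals were raised to 1.57, the 10th percentile, before log2 was taken, and the 64 controls and the dimmest 40% of the other probe sets by mean were dropped. limma 3.58.1 (R 4.3.3) fitted 1 mean per genotype with a variance trend (residual df 10, prior df 6.04). All p-values are two-sided, and SE belongs to the fitted log2 change.

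The background of 8.15 is the 95th percentile over 315 readings of controls that have no target. "At least N-fold" sets array signals under it to it. Of 22810 probe sets, 13436 carried 1 gene matched to RefSeq's gene table (TAIR10.1), 7333 of them tested. 503 listed several genes and were left unnamed. That table gave gene order. No depth applies to arrays: their number limits the precision. Members, lists and the sorting rule were chosen with earlier results of these data known, and the ribosomal lists were written by locus after seeing the data, since the table has no product names. Named genes were those with the largest changes among passing probe sets with 1 gene, no overlap between groups and both arrays of 1 group above background: 10 highest and 10 lowest of the rest, 5 and 5 toward Col-0, 3 and 3 in either further comparison, and at most 4 passing genes a list. Other genes are named to show a list or a gap. The same letter was not treated as a pairing: same-letter deviations correlated at −0.09 between psae1-3 stn7-1 and Wassilewskija. With 2 arrays a genotype, this value cannot exclude that arrays of the same letter were handled together. The fit was tested on simulated data. Alternatives were other scalings, floors, filters and models, a replicate block and leaving out each array.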

Additional observations from a re-analysis of the deposited data

Results flagged for a closer look

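The change of psae1-3 stn7-1 from Wassilewskija differed from that of psad1-1 stn7-1 from Col-0 at 3316 probe sets. The limma fit tested this as a contrast of the genotype means. Genes were ranked only where psae1-3 stn7-1 and Wassilewskija did not overlap and 1 of them read above background on both arrays. The 3 highest of these were AT1G76960 (14.79 log2), AT1G66100 (8.37 log2) and ECS1 (AT1G31580, 7.43 log2). The 3 lowest were PSAE-1 (AT4G28750, −9.25 log2), AT5G15360 (−5.20 log2) and AT2G30540 (−4.76 log2). Among the 3 highest and 3 lowest, all but ECS1 had signals under the background, which give bounds only. PYK10 (AT3G09260), which overlapped between psae1-3 stn7-1 and Wassilewskija and was not ranked, had a difference of −4.83 log2 (adjusted p = 0.00028). For PSAE-1 only psae1-3 stn7-1 carries a mutation in the gene. Each double mutant was measured beside a different wild type in a different array set, in which the 25S ribosomal RNA control read 15.1 to 22.1 (6 arrays with Wassilewskija) and 522 to 2130 (11 arrays with Col-0). Whether the array set has a part in these differences was not tested. Groups of 2 and 3 arrays are too small to look for single arrays that stand apart.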

How the results depend on the processing

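Leaving out 1 array gave 1274 to 1547 passing probe sets between psae1-3 stn7-1 and Wassilewskija, 454 to 772 toward Col-0, 769 to 1335 against psae1-3 and 2296 to 3286 for the difference between the double mutants. The share of wild-type gaps covered ran from 35.7% (without Col-0 replicate A) to 44.6% on chromosome 1 and from 14.6% to 22.1% (without Wassilewskija replicate A) on chromosomes 2 to 5. With no filter on low signals the share on chromosomes 2 to 5 was 26.1%, and with gaps of at least 8-fold, a limit chosen after seeing the data, 54.5% on chromosome 1 and 22.2% on the others. The number toward Col-0 was 478 with gap and share taken from psae1-3 and 370 with gaps of at least 2-fold. With a replicate block on the array letter, which the deviations did not bear out as a pairing, the counts were 2040 passing, 693 toward Col-0, 1500 against psae1-3 and 3077 for the difference, and the shares were 40.7% and 16.1%. The other settings left these results within 1.5 times of the values reported or within the counting interval of the share. That interval takes genes as independent, which neighbouring genes are not, so it is no test of the shares. The fit over the 6 arrays of the Wassilewskija set holds no Col-0 array and gives no value for results that need one. Of 406 results of named genes under other settings 14 lost the call and 0 reversed, and of 204 with 1 array left out 47 lost it and 0 reversed. Where 1 array is left of a genotype, it is assumed to vary like the others. The 2 arrays a genotype limit the precision of these calls, and signals near the background give bounds only.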

Other observations

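Hormone and stress genes beside those above were tested between psae1-3 stn7-1 and Wassilewskija. The plant defensin genes PDF1.2 (−0.10 log2, adjusted p = 0.941) and PDF1.2B (−0.77 log2, adjusted p = 0.584), the salicylic acid genes SAG101 (−0.03 log2, adjusted p = 0.961) and GRX480 (0.44 log2, adjusted p = 0.718), and the ER body genes PYK10 (−0.50 log2, adjusted p = 0.633) and NAI2 (−0.65 log2, adjusted p = 0.341) did not pass. Nor did GI of the clock (−0.17 log2), PYE of iron homeostasis (−0.25 log2) or UPOX of mitochondrial stress (−1.07 log2, adjusted p = 0.107). WRKY53, a regulator of senescence, read 76.5 and 65.5 in psae1-3 stn7-1, against 46.3 and 21.5 in Wassilewskija (1.17 log2, adjusted p = 0.132). HEMA2, a glutamyl-tRNA reductase of haem synthesis, read 69.4 and 52.3 in psae1-3 stn7-1, against 34.3 and 35.9 in Wassilewskija, and missed the threshold (0.78 log2, adjusted p = 0.0565). COR15B, a chloroplast cold protein, read 109 and 120 in psae1-3 stn7-1 and 403 and 238 in psae1-3, against 196 and 279 in Wassilewskija, and passed only against psae1-3 (−1.44 log2, adjusted p = 0.04).

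AT2G36130, a cyclophilin-like protein on chromosome 2, covered 0.83 of its gap to Col-0 in psae1-3 stn7-1 and 0.97 in psae1-3. It read 78.0 and 86.0 in psae1-3 stn7-1, 109 and 110 in psae1-3 and 115, 120 and 115 in Col-0, against 29.4 and 6.77 in Wassilewskija. Together with THI2.2 it was 1 of 2 gaps of at least 8-fold, of 87 with a named gene, at which psae1-3 covered 0.5 or more.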
